A study of Mus musculus with 9 samples.

Results

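Small nucleolar RNAs (snoRNAs) and small Cajal body RNAs (scaRNAs) were followed in the lung transcriptome of a mouse model of chronic obstructive pulmonary disease (COPD). The members were the genes of the mm10 transcript table whose symbol starts with Snord, Snora or Scarna followed directly by a digit, with counts summed over the transcripts of a gene. The rule took 123 of 45777 genes, each with 1 transcript. They comprised 76 box C/D snoRNAs (Snord), 38 box H/ACA snoRNAs (Snora) and 9 scaRNAs (Scarna). Genes with other symbols, such as the Rnu3 genes of U3, a box C/D snoRNA, are not members.

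The 9 sequenced libraries came from the lungs of male C57BL/6N animals and fell into 3 groups of 3. Mice of all groups received 2% DMSO by mouth as vehicle once a day from day 1 to day 14, and lungs were taken on day 15. The normal control (NC) mice were instilled with PBS through the nose. The COPD mice were instilled on days 1, 6 and 13 with lipopolysaccharide (LPS) at 0.5 mg/kg together with 12.5 mg/kg of a condensate of cigarette smoke (CSC). EA-BN-H mice had the same instillations, with 200 mg/kg of EA-BN, the ethyl acetate fraction of Boehmeria nivea leaves, dissolved in the oral vehicle. No library came from mice given EA-BN without LPS and CSC, and the age of the mice and the number of mice per library are not given in the sources used here. The p-values therefore measure the spread between these libraries only. According to the labels the libraries were made from total RNA with a stranded kit and read as pairs of 101 bp. The paper names a TruSeq RNA kit without these terms. RNA without a poly(A) tail was present in every library, since the 7SL RNA took 32.5% to 63.5% of the counts. How far RNA as short as most members was kept is not settled by the sources used here.

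Box C/D snoRNAs guide the methylation of the 2′ oxygen of ribose in ribosomal RNA, carried out by fibrillarin, and box H/ACA snoRNAs guide the change of uridine to pseudouridine, carried out by dyskerin. The scaRNAs do the same for spliceosomal RNAs in Cajal bodies, and may hold both kinds of box. Most vertebrate snoRNAs lie in introns of host genes and are trimmed from the spliced intron, and some, such as U17, U8 and U22, act in the cleavage of precursor ribosomal RNA.

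Library totals ran from 25232402 to 42156219 counts. The 7SL genes Rn7s1 and Rn7s2, which encode the RNA of the signal recognition particle, took from 32.5% to 63.5% of them, with the highest share in EA-BN-H replicate 3. TMM scaling, which sets libraries to a common level for most genes, gave that library a factor of 0.587, against 0.885 to 1.22 for the others. Levels below are given as CPM, the count relative to the library total after this scaling, and unscaled CPM, relative to all counts of a library, are given where the scaling matters. Of the markers of the labelled tissue, all 6 were present in every library, among them Sftpc of alveolar type 2 cells at 234 to 1226 CPM. The 3 heart markers summed to as much as 218 CPM in NC, 137 CPM in COPD, but no more than 47.8 CPM in EA-BN-H. The 3 macrophage markers summed to between 29.6 and 55.6 CPM in NC, against 79.0 to 151 CPM in COPD and 44.7 to 125 CPM in EA-BN-H. The part of these other cell types in the results on snoRNAs was not tested. In bulk tissue, fewer cells of a type and less RNA per cell cannot be told apart.

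The sequences below are shown because the results turn on these RNAs or on their likeness to each other. They are GENCODE transcripts on GRCm38, the same build as mm10. In the box C/D snoRNAs the capitals mark box C, sought as TGATGA, and box D, sought as CTGA. Snord17 (minus strand, chr2:144265979-144266216) was the most abundant member, Snord15b (minus strand, chr7:99479563-99479707) passed the thresholds for EA-BN-H against COPD, and Snord37 (plus strand, chr10:81178950-81179013) has the short form that is usual in this class.
Snord17: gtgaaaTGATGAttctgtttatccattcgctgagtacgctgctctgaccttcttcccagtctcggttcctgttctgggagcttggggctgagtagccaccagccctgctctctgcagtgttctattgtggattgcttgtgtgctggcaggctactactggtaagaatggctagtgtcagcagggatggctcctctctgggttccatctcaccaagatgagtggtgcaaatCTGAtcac
Snord15b: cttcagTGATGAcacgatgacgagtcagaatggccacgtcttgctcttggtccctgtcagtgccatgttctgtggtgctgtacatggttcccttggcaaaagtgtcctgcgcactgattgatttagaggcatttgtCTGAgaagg
Snord37: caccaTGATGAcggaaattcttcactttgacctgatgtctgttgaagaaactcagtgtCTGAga
In Scarna13 (minus strand, chr12:105031075-105031349) the capitals mark the ACA that lies 3 bases before the end.
Scarna13: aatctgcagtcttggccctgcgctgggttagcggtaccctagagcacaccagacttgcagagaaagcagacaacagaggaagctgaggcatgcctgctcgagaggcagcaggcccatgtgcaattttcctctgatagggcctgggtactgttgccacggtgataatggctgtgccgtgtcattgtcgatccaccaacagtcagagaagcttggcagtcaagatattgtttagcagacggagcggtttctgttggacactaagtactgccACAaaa
In Snora73a (minus strand, chr4:132352775-132352979) and Snora73b (minus strand, chr4:132352322-132352526), the copies of U17, the capitals mark the 7 of 205 bases at which they differ.
Snora73a: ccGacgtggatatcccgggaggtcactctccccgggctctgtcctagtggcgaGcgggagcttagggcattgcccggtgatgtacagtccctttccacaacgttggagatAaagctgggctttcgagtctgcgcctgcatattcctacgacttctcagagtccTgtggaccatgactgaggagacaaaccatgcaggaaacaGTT
Snora73b: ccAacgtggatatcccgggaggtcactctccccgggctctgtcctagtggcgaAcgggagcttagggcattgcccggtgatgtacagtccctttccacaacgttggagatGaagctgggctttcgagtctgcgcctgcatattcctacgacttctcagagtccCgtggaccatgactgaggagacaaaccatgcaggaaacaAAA
The remaining 198 bases of the U17 copies are identical, so reads can be shared between them and their separate values are uncertain.

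Over the 122 members with a GENCODE transcript, these box motifs followed the class names. TGATGA within the first 20 bases together with CTGA within the last 20, on the transcript strand, was found in 46 of 75 box C/D snoRNAs, in 0 of 38 box H/ACA snoRNAs and in 4 of 9 scaRNAs. An ACA exactly 3 bases before the end was found in 32 of 38 box H/ACA snoRNAs, in 0 of 75 box C/D snoRNAs and in 2 of 9 scaRNAs. Some other members are also near copies. Snord116l1 and Snord116l2 are identical over 94 bases, Snord14c and Snord14d share 84 of 86 bases, and Snord88a and Snord88c share 85 of 90.

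The level of the snoRNAs and scaRNAs was held by very few genes. All 123 members together had 85331 counts over the 9 libraries, and the 9 most abundant took 92.5% of them. Snord17 alone held 34192 counts, 40.1% of the total and 91.0% of all box C/D counts. Scarna13, the scaRNA known as U93 in human, held 17567 counts and 69.8% of the scaRNA counts, while Snora73a held 11332 counts and 50.2% of the box H/ACA counts. The other 114 members shared 6378 counts. Only 12 members averaged 1 CPM or more. Counts were seen in every library for 46 members and in no library for 2, Snord116l1 and Snord116l2, which are known as brain-enriched snoRNAs of the imprinted Snhg14 locus. A floor of 3 counts stood at 0.0658 to 0.160 CPM per library, so the level of those copies cannot be told from 0 at this depth.

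Members differ in length, so their levels were compared per kb of the GENCODE gene. Snord17 stood at 585 ± 442 CPM per kb (SD over 9 libraries), Scarna13 at 232 ± 51.9, Snora73a at 206 ± 89.2 and Snora73b at 91.2 ± 39.7. Snora74a at 45.0 ± 29.5, Snora78 at 39.4 ± 26.3, Scarna10 at 32.3 ± 11.9, Scarna2, a guide of U2 methylation, at 24.5 ± 9.04 and Scarna6 at 22.7 ± 9.84 CPM per kb came next. In this order Scarna13 and Snora73a, and all the neighbours from Snora74a to Scarna6, lay within each other's spread. The most abundant members below these were Snord2 at 11.5 ± 5.85, Snord15b at 10.3 ± 6.59, Snord22 (U22) at 10.2 ± 7.21 and Snord37 at 9.59 ± 3.48 CPM per kb. The deposited FPKM gave the same leading 3, with Snord17 at 509 ± 234, Scarna13 at 204 ± 22.8 and Snora73a at 184 ± 84.6. It put Scarna2 at 143 ± 34.7 and Scarna10 at 137 ± 64.6, above Snora73b at 79.7 ± 33.7. The table models Scarna2 over 61 bases and Scarna10 over 71, where GENCODE has 414 and 325, and FPKM divides by the shorter length. Reads outside these stretches may not have been counted, so the CPM per kb of both may be too low and their place in the order is uncertain. The table's model was shorter than that of GENCODE for 95 members, equal for 16 and longer for 11, among them Snora78 with 157 bases against 128.

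**Figure D1:**
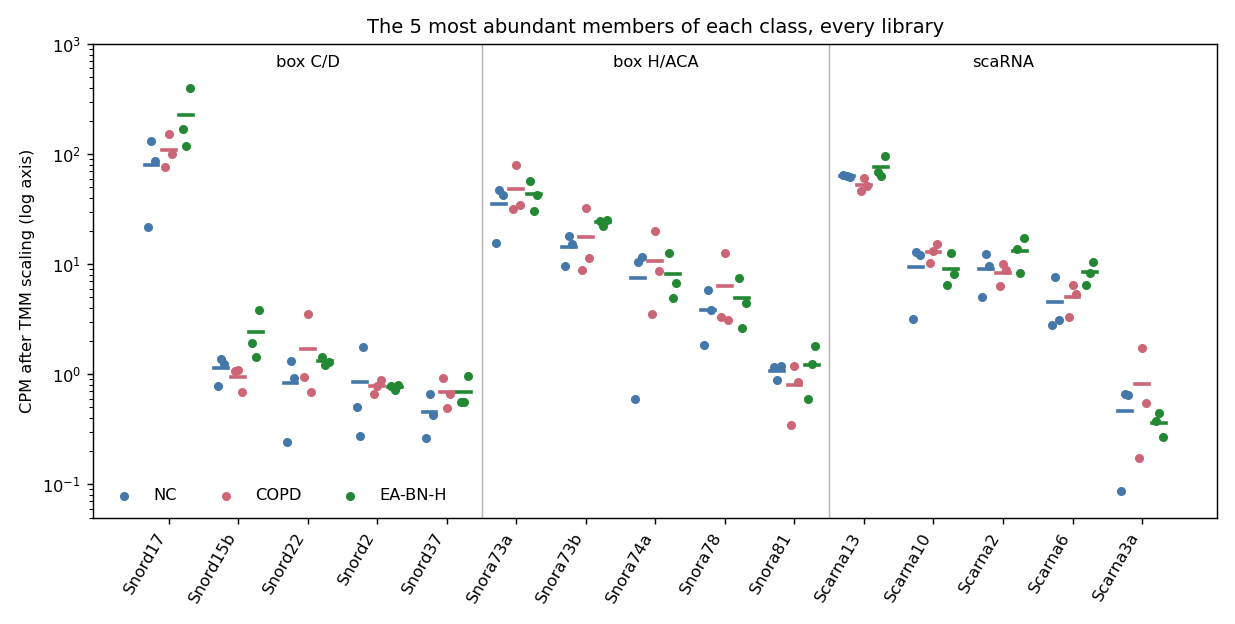
CPM after TMM scaling (log axis) of the 5 most abundant members of each class, with a point for each library and a bar at the mean of each group of 3. Snord17 ranges from 21.8 CPM in NC replicate 1 to 394 CPM in EA-BN-H replicate 3, while the 9 points of Scarna13 lie between 45.7 and 97.0 CPM.

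Longer members had more counts, also per length. The 10 members of 178 to 414 nt held 78042 counts, 91.5% of all, with a median of 38.6 CPM per kb. The 46 members of 104 to 149 nt had a median of 1.37 CPM per kb and the 66 members of 64 to 99 nt a median of 1.09 CPM per kb, with ranges of 0.218 to 39.4 and of 0 to 11.5. All 10 of the longest members passed the filter for testing, against 21 of 46 and 9 of 66. Across the 122 members the rank correlation of length and CPM per kb was 0.33 (Spearman, a description over genes that share the same libraries). It was 0.18 within the 75 box C/D snoRNAs, 0.25 within the 38 box H/ACA snoRNAs and 0.82 within the 9 scaRNAs. Snora78, at 128 nt, was the short exception with 39.4 CPM per kb, and it lies in an intron of Snhg9 and within the span of Rps2. The deposited table models it over 157 nt, so its level per kb may be too high and its place as a short exception is uncertain. Paired reads of 101 bp span most or all of a short snoRNA, and the part of fragment length in these levels was not tested.

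**Figure D2:**
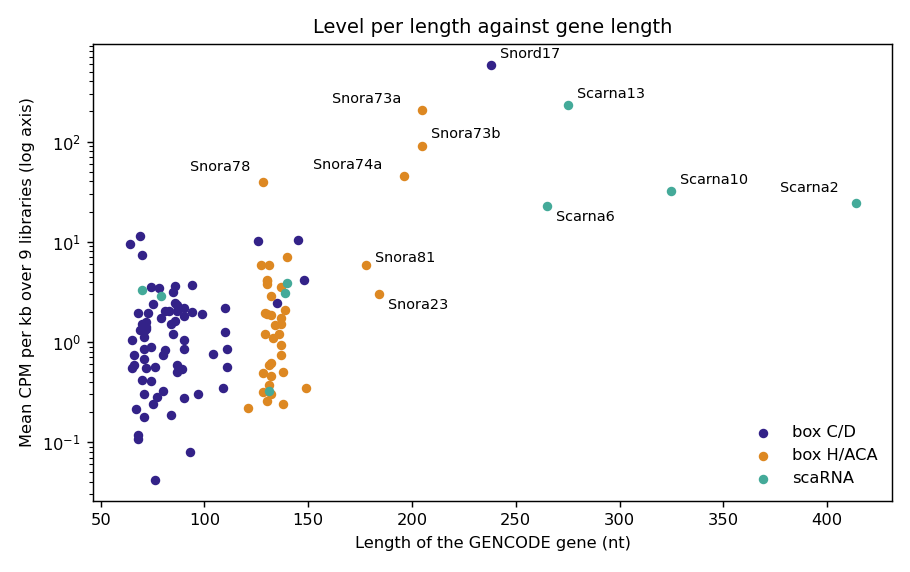
Mean CPM per kb over the 9 libraries (log axis) against the length of the GENCODE gene, with a point for each member with counts. Apart from Snora81 and Snora23, the members of 178 nt or more lie above 20 CPM per kb, and all shorter members except Snora78 lie below 12.

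The summed level of each class was compared between libraries. In unscaled CPM, box C/D snoRNAs took 32.5, 152 and 110 in NC, 91.1, 191 and 136 in COPD, with 160, 141 and 240 in the EA-BN-H libraries. Box H/ACA snoRNAs took 37.8, 95.9 and 92.4 in NC, 56.2, 179 and 79.7 in COPD, with 98.9, 73.4 and 53.2 in the EA-BN-H libraries. The scaRNAs were steadier, at 81.4, 105 and 97.7 in NC, 69.3, 106 and 99.5 in COPD, with 84.6, 98.7 and 78.7 in the EA-BN-H libraries. The 3 groups overlapped in all 3 classes on this scale. NC replicate 1 was lowest for both snoRNA classes, and there scaRNAs made up 53.7% of the counts of all members, against 21.1% to 32.6% in the other libraries.

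After TMM scaling box C/D snoRNAs summed to 30.0, 142 and 98.8 CPM in NC, 87.8, 170 and 112 CPM in COPD, with 181, 134 and 409 CPM in the EA-BN-H libraries. The value of EA-BN-H replicate 3 was thus 240 in unscaled CPM and 409 after scaling. Without Snord17 the class summed to between 8.20 and 16.9 CPM in all libraries, against 21.8 to 394 CPM for Snord17 alone. The number of members with a count ran from 70 in NC replicate 2 and 80 in EA-BN-H replicate 1 to 111 in EA-BN-H replicate 2, with no order by group.

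**Figure D3:**
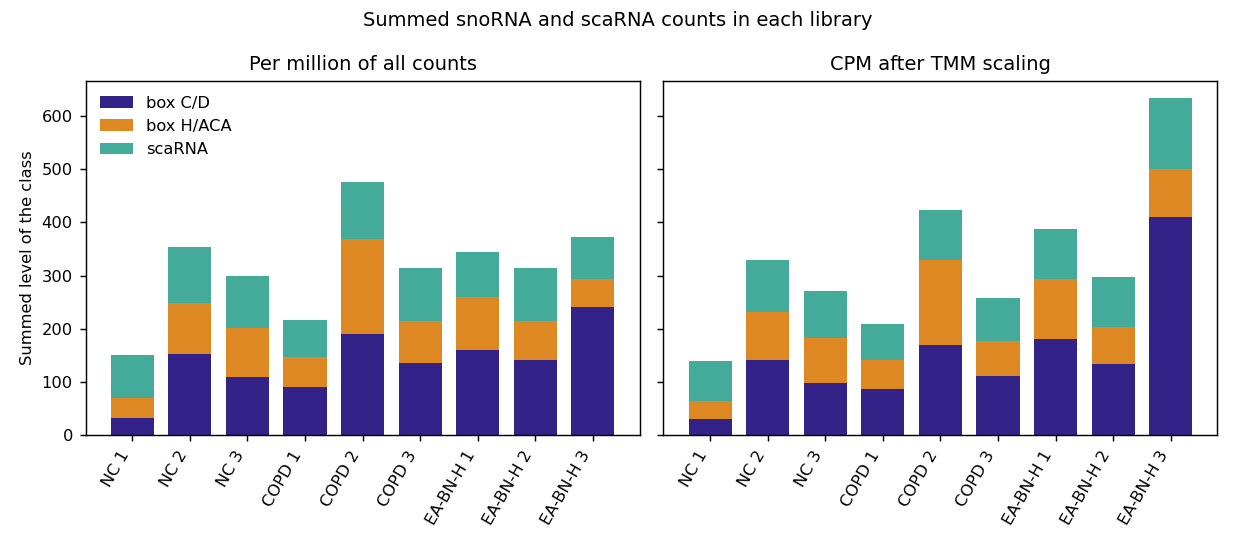
Summed level of box C/D snoRNAs, box H/ACA snoRNAs and scaRNAs (stacked bars) in each of the 9 libraries, as unscaled CPM (left) and as CPM after TMM scaling (right). NC replicate 1 is lowest on both scales, and EA-BN-H replicate 3 stands highest on the right, at 634 CPM, where 7SL took 63.5% of its counts.

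Among the 12 members of 1 CPM or more, NC replicate 1 was the lowest of the 9 libraries for 8, EA-BN-H replicate 3 the highest for 6 and COPD replicate 2 the highest for 5. In unscaled CPM, NC replicate 1 was still lowest for 8 and COPD replicate 2 highest for 6, but EA-BN-H replicate 3 was highest for only 2. NC replicate 1 also differed outside the snoRNAs. It had 13.2 CPM of the endothelial gene Cldn5, against 27.0 to 77.7 CPM elsewhere, and 6.24% of its counts were mitochondrial ribosomal RNA, against 1.34% to 3.86%. Among the other lung markers it was lowest for Ager, at 100 CPM against 175 to 549 CPM. For Scgb1a1 it was highest, at 18321 CPM against 2559 to 10053 CPM. Its Sftpc, Sftpb and Foxj1 lay within the range of the other libraries. The part of these differences in the values of NC was not tested.

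U3, a box C/D snoRNA outside the symbol rule, acts in the cleavage of precursor ribosomal RNA. The Rnu3 genes summed to 98.6, 513 and 412 CPM in NC, 583, 866 and 483 CPM in COPD, with 1010, 224 and 727 CPM in the EA-BN-H libraries. NC replicate 1 was again the lowest library, while EA-BN-H replicate 1 was the highest and the groups overlapped. Reads can be shared between the Rnu3 copies, and none of them passed the thresholds below.

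Abundant members tended to vary more within a group than other genes of like level. The SD of log2 CPM within groups was 0.98 for Snord17, larger than for 83.7% of all genes tested, 1.57 for Snora74a, larger than for 96.7%, and 0.71 for Snora73a, larger than for 72.7%. Scarna13 was the lowest with 0.23, larger than for 14.5%. Snord15b, Scarna2 and Scarna6 were nearer the middle, with an SD larger than for 55.0%, 56.9% and 60.7%. For the 6 members of 10 CPM or more the median SD was 0.67, against 0.31 for the other 9123 genes at that level. For the 6 members of 1 to 10 CPM it was 0.78, against 0.54 for 6446 genes.

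The groups were then compared with edgeR's quasi-likelihood test on all 18716 genes that passed the filter on low counts. Of the members 40 were tested, 14 box C/D snoRNAs, 19 box H/ACA snoRNAs and 7 scaRNAs. The other 83 had too few counts, so the counts below describe the tested ones only. A gene was taken as a differentially expressed gene (DEG) at an unadjusted p under 0.05 and a log2 fold change of at least 1 in size, and as called at a Benjamini-Hochberg adjusted p under 0.05. The 3 comparisons share libraries.

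COPD against NC addresses the effect of LPS and CSC. None of the 40 members was a DEG, while 7.12% of all genes tested were higher and 2.34% lower by the same thresholds. None was called, against 1.6% of all genes, and the smallest adjusted p of a member was 0.333 in edgeR's test. At an unadjusted p under 0.05 there were 0 members with edgeR and 2 with DESeq2, against 15.4% and 18.5% of all genes. Yet 27.5% of the members tested had a log2 fold change of at least 1 in size, against 18.9% of all genes. Their median SE was 0.95, against 0.37 for all genes, so the lack of DEGs does not show smaller changes. The fold change was above 0 for 29 of the 40, or 72.5%, against 48.6% of all genes. The median log2 fold change was 0.25 where the median of all genes was -0.02. Among the 29, Snora43, Snora17, Snord89 and Snora64 passed the filter on low counts only through exposed libraries. Their direction is partly set by that filter and cannot serve as evidence of a rise. By class the median was 0.33 for box C/D snoRNAs, 0.18 for box H/ACA snoRNAs and 0.38 for scaRNAs. When single libraries of these groups were left out, the median of the same 40 ran from -0.10 without COPD replicate 2 to 0.68 without NC replicate 2.

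The 2 members past DESeq2's unadjusted p, Snora43 and Snora17, lie near each other in the span of Snhg7 and are named here because of these values. Snora43 had 5, 2 and 1 counts in NC, 13, 27 and 9 in COPD, with 2, 19 and 3 in the EA-BN-H libraries. Snora17 had 5, 2 and 5 counts in NC, 14, 14 and 14 in COPD, with 4, 5 and 5 in the EA-BN-H libraries. Both were higher in every COPD library than in any NC library, at counts of 27 or less. Snora17 passed the low-count filter only through its COPD libraries, and Snora43 only through COPD and EA-BN-H libraries. Their lack of overlap and their p-values are thus partly set by that filter, and cannot serve as separate evidence of a difference. With edgeR the log2 fold change of COPD against NC was 2.84 ± 1.30 (SE) for Snora43 (adjusted p = 0.333) and 1.87 ± 1.13 for Snora17 (adjusted p = 0.481). With DESeq2 the adjusted p was 0.146 and 0.263.

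Snord17 was at 21.8, 132 and 87.3 CPM in NC and 76.9, 153 and 100.1 CPM in COPD. The groups overlapped, and its log2 fold change was 0.45 ± 0.61 (edgeR, adjusted p = 0.798). Leaving out 1 library moved it from 0.00 (without NC replicate 1) to 1.01 (without NC replicate 2).

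Scarna13 was at 63.9, 63.1 and 61.6 CPM in NC and 45.7, 60.8 and 50.8 CPM in COPD. All COPD libraries were below the NC libraries, by a log2 fold change of -0.26 ± 0.21 that did not pass edgeR's test (adjusted p = 0.608). In unscaled CPM, the NC libraries had 69.1, 67.9 and 68.3 and the COPD libraries 47.4, 68.2 and 62.0, which overlapped.

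Snora73a was at 15.6, 46.8 and 42.6 CPM in NC, 31.4, 79.7 and 34.3 CPM in COPD, with 57.1, 30.3 and 42.6 CPM in the EA-BN-H libraries. Snora74a was at 0.592, 10.5 and 11.5 CPM in NC, 3.51, 20.1 and 8.61 CPM in COPD, with 12.7, 4.97 and 6.79 CPM in the EA-BN-H libraries. Both box H/ACA snoRNAs were lowest in NC replicate 1 and highest in COPD replicate 2, and their groups overlapped. Snora78 and Snord22 were also highest in COPD replicate 2, at 12.7 and 3.50 CPM, and lowest in NC replicate 1, at 1.84 and 0.241 CPM. The remaining abundant members were Scarna2 at 5.07 to 17.2 CPM, Snora81 at 0.345 to 1.82 CPM, Snord2 at 0.273 to 1.75 CPM, Snord37 at 0.263 to 0.963 CPM and Scarna3a at 0.0877 to 1.73 CPM. Their groups overlapped in each of the 3 comparisons, and none was a DEG.

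EA-BN-H against COPD addresses the effect of the high dose in exposed mice. Of the 40 members 1 was a DEG, Snord15b, which was higher, where 0.502% of all genes were higher and 0.299% lower. None was called, as 0% of all genes were, and at an unadjusted p under 0.05 there were 2 members with edgeR and 2 with DESeq2, against 1.58% and 2.47% of all genes. The fold change was above 0 for 18 and below 0 for 22, with a median log2 of -0.02 and a median of 0.00 over all genes. The class medians were -0.20 for box C/D snoRNAs, 0.05 for box H/ACA snoRNAs and -0.51 for scaRNAs.

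Snord15b, a box C/D snoRNA in an intron of the ribosomal protein gene Rps3, had 36, 45 and 35 counts in NC, 37, 31 and 24 in COPD, with 51, 48 and 72 in the EA-BN-H libraries. This made 0.790, 1.36 and 1.25 CPM in NC, 1.06, 1.10 and 0.686 CPM in COPD, with 1.91, 1.43 and 3.85 CPM in the EA-BN-H libraries. All EA-BN-H libraries were above all others, with replicate 3 highest. The log2 fold change of EA-BN-H against COPD was 1.33 ± 0.57 (edgeR, adjusted p = 1). Without EA-BN-H replicate 3 it was 0.81, without COPD replicate 1 it was 1.42, without COPD replicate 2 it was 1.44 and without COPD replicate 3 it was 1.14, and in none of these was Snord15b a DEG. With library totals in place of TMM it was 0.78 and again no DEG. In unscaled CPM, the libraries of EA-BN-H still stood above those of COPD, at 1.69, 1.50 and 2.26 against 1.10, 1.23 and 0.836. Snord15a, in another intron of Rps3, shares only 93 of 148 bases with it and had 24, 29 and 13 counts in COPD, with 8, 26 and 6 in the EA-BN-H libraries.

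Scarna13 was the other member under an unadjusted p of 0.05. EA-BN-H had 68.2, 63.2 and 97.0 CPM, all above the COPD values of 45.7 to 60.8 CPM. Its log2 fold change was 0.54 ± 0.21 (edgeR, adjusted p = 1), under the size set for a DEG. In unscaled CPM, EA-BN-H had 60.3, 66.5 and 56.9, which overlapped with COPD, and with library totals in place of TMM the log2 fold change was 0.05. Without EA-BN-H replicate 3 it was 0.33.

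EA-BN-H against NC sets treated, exposed mice beside unexposed ones. Again 1 of the 40 members was a DEG, Snord17, which was higher, where 6.66% of all genes were higher and 1.64% lower. None was called, against 1.13% of all genes, and at an unadjusted p under 0.05 there was 1 member with edgeR and 1 with DESeq2, against 14.5% and 17.2% of all genes. The median SE was again larger for the members, at 0.96 against 0.37 for all genes. The fold change was above 0 for 27 of the 40, or 67.5%, against 50.1% of all genes. Among the 27 were Snora43, Snord89 and Snora64, whose direction is partly set by the filter on low counts. The median log2 was 0.33 beside 0.00 over all genes, with class medians of 0.63, 0.32 and 0.28 for box C/D snoRNAs, box H/ACA snoRNAs and scaRNAs. With library totals the median of the 40 was -0.08, and that of all genes -0.38.

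Snord17, a box C/D snoRNA in an intron of Snx5, was at 170, 119 and 394 CPM in EA-BN-H, beside 21.8, 132 and 87.3 CPM in NC. The groups overlapped, since EA-BN-H replicate 2 was below NC replicate 2. The log2 fold change was 1.50 ± 0.62 (edgeR, adjusted p = 0.293). It was 1.05 without NC replicate 1, 1.57 without NC replicate 3 and 0.86 without EA-BN-H replicate 3, and in none of these was Snord17 a DEG. In unscaled CPM, Snord17 had 23.6, 142 and 96.8 in NC and 150, 125 and 231 in EA-BN-H, and with library totals in place of TMM its log2 fold change was 0.95. Against COPD it was 1.05 ± 0.61 (edgeR, adjusted p = 1). The share of 7SL was also highest in EA-BN-H replicate 3, and its part in this value was not tested.

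Snora73b had 9.69, 17.9 and 15.4 CPM in NC, 8.86, 32.6 and 11.4 CPM in COPD, with 24.9, 22.2 and 25.3 CPM in the EA-BN-H libraries. Every EA-BN-H library was above the NC libraries and within the range of COPD. The log2 fold change of EA-BN-H against NC was 0.75 ± 0.44 (edgeR, adjusted p = 0.505), and reads shared with Snora73a make this value uncertain. Scarna6 had 2.83, 7.58 and 3.11 CPM in NC and 6.48, 8.33 and 10.5 CPM in EA-BN-H, which overlapped, with a log2 fold change of 0.90 ± 0.43 (edgeR, adjusted p = 0.379). Without COPD replicate 2 Snora73b was a DEG for EA-BN-H against COPD, at 1.25, and without NC replicate 2 Scarna6 was one for EA-BN-H against NC, at 1.49.

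**Figure D4:**
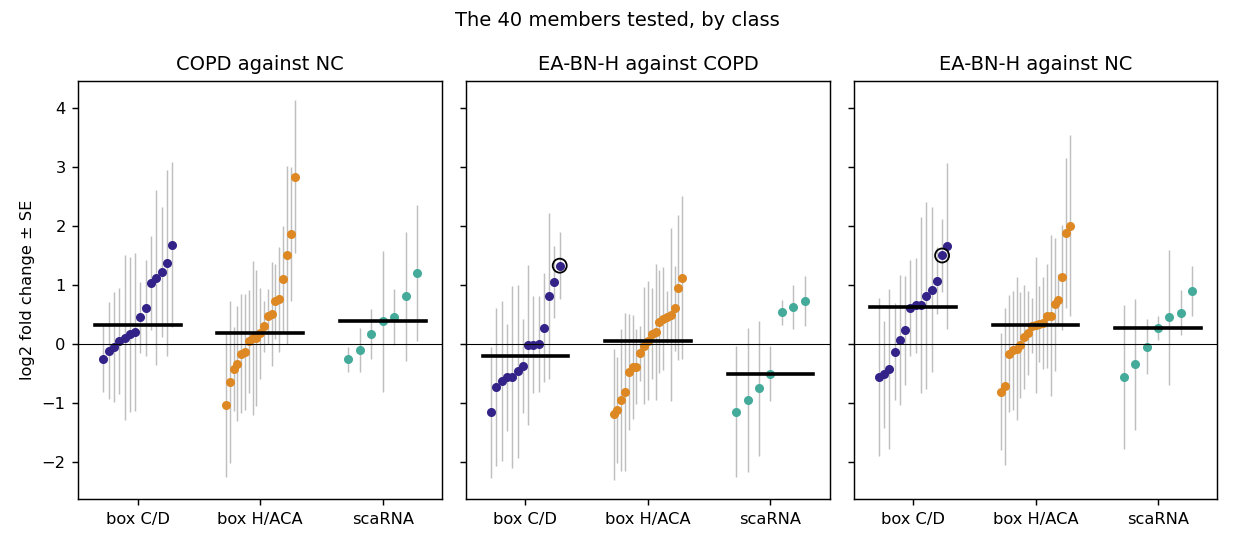
log2 fold change with its SE for the 40 members tested, sorted within each class, in the 3 comparisons. Black bars mark the class medians and open circles the DEGs, Snord15b in the middle panel and Snord17 on the right. Most SE bars cross 0, and the median SE of the 40 was 0.95 to 0.96, against 0.37 for all genes.

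Hosts were assigned from the coordinates. A gene of the table enclosed the member on the same strand for 110 of the 123, with 82 hosts in all, of which 20 held several members. Of these members 101 lay in an intron and 8 in an exon, Snora73a in Snhg3 and Snord22 in Snhg1 among them, where reads of the spliced host can also be counted for the snoRNA. Of the 110 members with a host, 32 were assigned to ribosomal protein genes. Gas5 or genes of the Snhg kind, named as snoRNA hosts, were assigned 16. Of the 13 without a host, 9 lay in a gene whose strand could not be matched and 4, Scarna2, Snord118 (U8), Snord13 and Snord89, lay in none. Among the 9 were Snora74a in the span of Snhg4, Snora43 and Snora17 in Snhg7, and Snord43 in Rpl3. Snord1a, Snord1b and Snord1c, in the span of Snhg16, also belong to the 9.

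For 33 tested members the host was tested too, in 29 hosts. The signs of member and host were the same for 21 of 33 in COPD against NC, 19 in EA-BN-H against COPD and 17 in EA-BN-H against NC. The rank correlation of the log2 fold changes was 0.29, 0.10 and 0.18 (Spearman over 33 members that share libraries, as a description). For Snord17 the 3 EA-BN-H libraries had 38.3, 77.3 and 37.0 CPM of the host Snx5, which encodes a sorting nexin. Replicate 2, with the highest Snx5 of the 3, had the lowest Snord17. In EA-BN-H against COPD the log2 fold change was 1.05 for Snord17 and -0.24 for Snx5, and 1.33 for Snord15b and -0.12 for Rps3. In COPD against NC it was 0.45 for Snord17 and 0.76 for Snx5, and -0.26 for Snord15b and 0.23 for Rps3. In EA-BN-H against NC the same pairs had 1.50 and 0.53, and 1.07 and 0.10. Scarna13 and its host Snhg10 shared their sign in all 3 comparisons, though Snhg10 had only 169 counts in all.

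In COPD against NC 1.6% of all genes were called. Of the 81 hosts tested, Ncapd2, a subunit of the condensin complex and host of Scarna10, was the only one called there. It had 7.50, 12.5 and 7.93 CPM in NC, 31.2, 20.1 and 25.7 CPM in COPD, with 23.8, 25.7 and 18.1 CPM in the EA-BN-H libraries, with no overlap between NC and the others. Its log2 fold change of COPD against NC was 1.46 ± 0.27 (edgeR, adjusted p = 0.0361). It was not called when any NC library, COPD replicate 1 or COPD replicate 3 was left out. The log2 fold changes were then 1.33, 1.72 and 1.36 without NC replicates 1, 2 and 3, and 1.30 and 1.46 without the COPD replicates (edgeR, adjusted p from 0.0980 to 0.133). In each of those fits 0 or 1 of all genes was called, so the loss was not particular to Ncapd2. Nor was Ncapd2 called with library totals (1.51, edgeR, adjusted p = 0.0820), where 95 of 18716 genes were. When transcripts were tested singly, 0 were called, those of Ncapd2 included. Scarna10 in its intron had 3.20, 12.9 and 12.2 CPM in NC, 10.3, 13.2 and 15.2 CPM in COPD, with 6.44, 12.8 and 8.08 CPM in the EA-BN-H libraries. These groups overlapped, with a log2 fold change of 0.46 ± 0.47 (edgeR, adjusted p = 0.716). Snhg14, the host of Snord64 and of the Snord116 copies, was a DEG but not called, with means of 6.27 ± 1.73 CPM (SD) in NC and 2.14 ± 1.55 CPM in COPD (log2 fold change -1.56 ± 0.61, edgeR, adjusted p = 0.254). Snord64 had 3 counts over all libraries.

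**Figure D5:**
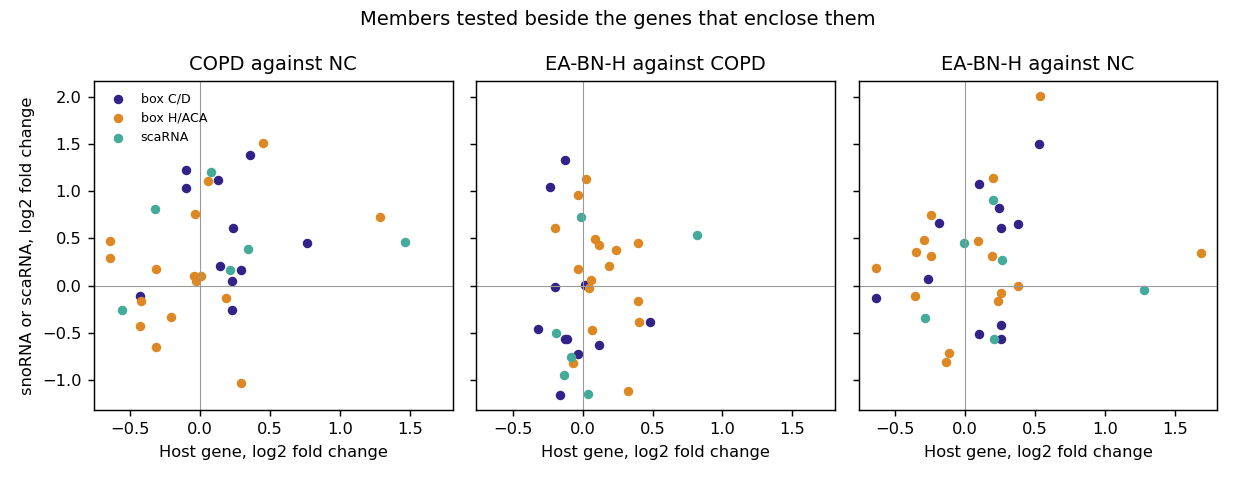
log2 fold change of each tested member (vertical axis) against that of the gene that encloses it (horizontal axis) in the 3 comparisons, for 33 members in 29 hosts. The points spread over all quadrants, and in the middle panel the hosts lie close to 0 with an SD of 0.24 while the members have an SD of 0.70.

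The genes of the proteins that bind or assemble these RNAs were taken from a list. Of 25 genes for core and assembly proteins 24 were in the table and tested, and none was a DEG or called in any comparison. At an unadjusted p under 0.05 there were 2 in COPD against NC, 0 in EA-BN-H against COPD and 1 in EA-BN-H against NC with edgeR, and 3, 0 and 1 with DESeq2. With edgeR 15.4%, 1.58% and 14.5% of all genes were under it, so the share of the protein genes was not above that of all genes in any comparison. The core proteins of box C/D snoRNAs had log2 fold changes of COPD against NC of 0.09 for the methyltransferase Fbl, 0.17 for Nop56, 0.22 for Nop58 and -0.24 for Snu13. Those of box H/ACA snoRNAs had -0.16 for the pseudouridine synthase Dkc1, -0.11 for Gar1, 0.01 for Nhp2 and -0.68 for Nop10. The genes under 0.05 were Naf1, an assembly factor of box H/ACA particles, with -0.69 (edgeR, adjusted p = 0.273) and Nufip1, one of box C/D particles, with 0.79 (adjusted p = 0.277), both in COPD against NC. Rrp9, the U3 binding protein, was under it in EA-BN-H against NC with 0.50 (edgeR, adjusted p = 0.325). The median of the 24 was -0.05, 0.01 and -0.02 in the 3 comparisons.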

How the data were processed

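Read counts were analysed from the deposited table of 129299 RefSeq transcripts on mm10. The authors deposited an estimated count per transcript and library, not normalized, beside FPKM and TPM, which divide by length and depth. Tools listed in the submitters' processing notes are HISAT2 2.1.0, Trimmomatic 0.38 and StringTie 2.1.3b, with DESeq2, and the paper adds HTSeq. Whether the counting used strand is not given in the sources used here. TPM was not used.

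Estimated counts were summed by gene. Genes passing filterByExpr with the groups were tested with edgeR 4.0.16 (TMM scaling, robust quasi-likelihood fit of all 9 libraries, common biological coefficient of variation 0.438), with Benjamini-Hochberg adjustment over 18716 genes. CPM values are given per library or as mean ± SD. Hosts, lengths and sequences came from GENCODE M21 on GRCm38, which matched 122 of 123 members by position. Identity between copies was counted from global alignments in Biopython 1.88.

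Named are the 5 most abundant members of each class, up to 6 DEG members per direction and comparison, called members, protein genes that are DEGs, and genes singled out after their values were seen. The members and lists were chosen with earlier results of these data known.

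The alternatives replaced edgeR by DESeq2 1.42.0 (plain or shrunken fold changes), replaced TMM by RLE size factors, by totals (all genes, or 7SL left out) or by nuclear mRNA, moved the low-count filter (none, or at least 10 counts in each library), added a replicate block, fitted 2 groups at a time, tested transcripts, or left out single libraries. R 4.3.3 was used. With 3 libraries per group the fits rest on the spread shared across genes.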

Additional observations from a re-analysis of the deposited data

How the results depend on the processing

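No member was called at the adjusted p in any comparison under any of the 20 alternatives. The smallest adjusted p values (edgeR or DESeq2) were 0.146 for COPD beside NC, 0.518 between the exposed groups and 0.107 for EA-BN-H beside NC. Between the exposed groups 3 of all genes were called with DESeq2, plain or shrunken, and 0 in every other setting. A replicate block or transcripts gave 0 called in the other comparisons. For EA-BN-H against NC, only the groups compared gave 0 of 17756 genes and library totals gave 5 of 18716. Leaving out any NC library, COPD replicate 1 or COPD replicate 3 gave 0 or 1. In those settings the lack of a called member says little about the members. No member was lower by the DEG thresholds. For COPD against NC the members higher by these thresholds were 2 with DESeq2 and 0 in every other setting. DESeq2 had 1440 of all 18716 genes higher there. For EA-BN-H against COPD, where 1 was higher, there were 0 with shrunken DESeq2 fold changes, library totals, library totals without 7SL, no filter on low counts and transcripts in place of genes, and 0 to 2 when 1 library was left out. Of all 18716 genes 94 were higher in the main fit, 0 with shrunken fold changes, 30 with library totals and 78 without 7SL. The unfiltered fit had 171 of 27923, transcripts had 525 of 48381, and leaving out 1 library gave 42 to 353 genes. For EA-BN-H against NC, where 1 was higher, there were 0 with shrunken fold changes, library totals and only the groups compared, 2 with at least 10 counts in every library, and 0 to 3 when 1 library was left out. Of all 18716 genes 1246 were higher in the main fit, 581 with shrunken fold changes and 858 with library totals. Only the groups compared gave 1021 of 17756, at least 10 counts gave 996 of 14929, and leaving out 1 library gave 746 to 1430 genes. With a replicate block there were 0 for EA-BN-H against COPD and 2, Snord17 and Scarna6, for EA-BN-H against NC. Of all 18716 genes 65 and 1116 were higher there. Libraries with the same number had residual correlations from -0.243 to 0.127, so the numbers were not taken to pair the samples. The log2 fold change of Scarna13 for EA-BN-H against NC turned from 0.28 to -0.16 with library totals. The cause was not tested, except that this setting moved the median of all genes to -0.38.

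Over the 18 alternatives that tested the same 40 members, their median log2 fold change ran from -0.10 to 0.68 for COPD beside NC, from -0.52 to 0.18 between the exposed groups and from -0.08 to 0.52 for EA-BN-H beside NC. The values of -0.52 and -0.08 came with library totals, where the median of all genes was itself -0.41 and -0.38. The call of Ncapd2 was also lost with a replicate block (1.49, edgeR, adjusted p = 0.0809), where 0 of all genes were called. Low counts limit what can be said: 83 of 123 members were not tested, and 15 had at least 10 counts in every library.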
